A study of Mus musculus with 24 samples.

Results

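The interferon-stimulated and MHC class I genes were a set of 44 genes out of 45706 in the count table. They were chosen by gene symbol and followed through all 8 groups of a bulk RNA-seq study of tissue-resident macrophages (TRMs). The set held 28 genes that respond to type I interferon, 7 that respond to interferon-gamma and 9 of class I antigen presentation, and all 44 had enough reads to be tested in each comparison. The type I genes were the regulators Irf7, Irf9, Stat2 and Usp18, the Ifit family (Ifit1, Ifit2, Ifit3), the OAS family (Oas1a, Oas2, Oas3, Oasl1, Oasl2), the sensors Ifih1, Ddx58, Zbp1 and Ifi205, and the effectors Isg15, Isg20, Rsad2, Mx1, Ifi44, Ifi35, Bst2, Ifitm3, Xaf1, Cmpk2, Rtp4 and Trim30a. The interferon-gamma genes were Irf1, Gbp2, Gbp3, Gbp5, Gbp7, Irgm1 and Igtp, and the class I genes were H2-K1, H2-D1, B2m, Tap1, Tap2, Tapbp, Psmb8, Psmb9 and Nlrc5.

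Type I interferons bind a receptor made of IFNAR1 and IFNAR2 and activate a complex that holds STAT2 and IRF9 and binds interferon-stimulated response elements in promoters of antiviral genes. Interferon-gamma acts through IFNGR1 and IFNGR2 on gamma-activated sites and induces IRF1 and the GTPases of the GBP and IRG families, although many genes answer both cytokines. Class I molecules show peptides to CD8 T cells: the proteasome cuts the peptides, TAP pumps them into the endoplasmic reticulum, tapasin helps to load them onto a heavy chain with B2m, and NLRC5 activates the promoters of these genes. Kupffer cells (KCs) line the liver sinusoids, where they meet microbial products carried by portal blood.

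Each group held 3 libraries. Microglia (MG) from brain, KCs from liver, peritoneal macrophages (PMs) and alveolar macrophages (AMs) from lung were sorted from female C57BL/6J mice of 8 to 12 weeks and are called ex vivo here. Their in vitro counterparts, the TRM-like cells (MG-LCs, KC-LCs, PM-LCs and AM-LCs), grew from unsorted single-cell suspensions of the same organs in flasks coated with polyethylenimine, with a single partial medium change. MG-LCs received M-CSF and IL-34, KC-LCs and PM-LCs M-CSF, and AM-LCs GM-CSF. AM-LCs were kept at atmospheric oxygen without glucose and the others at low oxygen with high glucose, and MG-LCs alone received IL-34, so tissue and medium cannot be told apart for AM-LCs and MG-LCs. No mutation, infection or cytokine challenge entered any group. Brain, lung and peritoneal cultures each pooled several mice. Liver and lung were digested with enzymes, brain was dissociated mechanically and the peritoneum was lavaged, so that tissue and isolation method cannot be told apart either.

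The libraries held 29569486 to 47105111 reads in genes. Levels below are CPM, the reads of a gene scaled to a common library size, normalised by TMM over the 24 libraries, and 3 reads corresponded to 0.0661 to 0.115 CPM. The sorted cells carried the defining markers of their labels, and these were lower in the matching cultures, to unequal degrees. The sort gates used the products of Timd4 and Adgre1 in KCs, Siglecf in AMs, and Adgre1 and Csf1r in PMs. These genes are among the markers, so their levels in sorted cells were partly set by the gates. The 4 AM markers summed to 20720 to 23760 CPM in sorted AMs and to 2456 to 9449 CPM in AM-LCs, against 0.943 to 29.8 CPM in the other cultures. The 4 KC markers summed to 13880 to 24790 CPM in sorted KCs and to 16.95 to 94.04 CPM in KC-LCs. Their sums were higher in MG-LCs (214.6 to 2233 CPM) and PM-LCs (142.3 to 825.6 CPM) and lower in AM-LCs (2.863 to 16.72 CPM). Clec4f, a KC marker, stood at 8146 to 14040 CPM in sorted KCs and at 0 to 0.168 CPM in KC-LCs. The 4 MG markers summed to 10600 to 11220 CPM in sorted MG and to 14.31 to 64.28 CPM in MG-LCs. Sall1, a factor of MG identity, stood at 656 to 745.5 CPM in sorted MG and at 1.36 to 20.7 CPM in MG-LCs. The 4 PM markers summed to 2113 to 2430 CPM in sorted PMs and to 72.22 to 74.65 CPM in PM-LCs. Some libraries stood apart. MG-LC replicate 1 had a summed level of 8 fibroblast and mesothelium markers of 30930 CPM, against 7.39 and 1012 CPM in the other MG-LC libraries, and the lowest sum of the macrophage markers among MG-LCs, 2235 CPM. Sorted KC replicate 1 had a summed level of 8 T and NK cell markers of 283.7 CPM, against 27.0 and 24.8 CPM in the other sorted KC libraries, and a sum of 5 macrophage markers of 6729 CPM, against 12040 and 15410 CPM. Their part in the results was not tested. For most comparisons that use these libraries, the counts of called genes are given with and without them. Most values of single genes are given with them only. In bulk RNA, fewer cells of a type and less RNA per cell cannot be told apart.

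The promoters of 37 of the 44 genes were in a RefSeq set of the GRCm38.p6 build, with no entry for Mx1, Oas2, Usp18, Zbp1, Rtp4, Tap2 and Nlrc5. The 250 bases upstream of each start were searched on both strands for GAAANNGAA, the core letters of an interferon-stimulated response element, and for TTCNNNGAA, the letters of a gamma-activated site. Of 45 windows of these genes, 40.0% held GAAANNGAA, against 7.13% of all 32851 windows in the set, and 9 windows held TTCNNNGAA, against 7.02% of all windows. The shares for GAAANNGAA were 39.3% in type I windows, 66.7% in interferon-gamma windows and 12.5% in class I windows, and those for TTCNNNGAA were 14.3%, 44.4% and 12.5%. In 1 of the windows the letters of both motifs overlapped. Below are 4 upstream stretches that hold matches, written 5′ to 3′ on the gene's strand. Annotated exons are left out and the matches are in capitals. Gbp2 and Tap1 were picked as well, but Gbp2 had no match outside exons and Tap1 no base outside them. Of the 7 class I genes with a promoter, 1 (B2m) held GAAANNGAA. Isg15 (chr4:156200819-156201068, minus strand) has 3 overlapping matches that start 78, 72 and 66 bases before the start site. Ifit1 (chr19:34640744-34640870, plus strand) has matches at 109, 103 and 84 bases on the opposite strand. Irf1 (chr11:53769764-53770013, plus strand) has a TTCNNNGAA match at 90 bases and B2m (chr2:122147437-122147685, plus strand) a GAAANNGAA match at 139 bases. A match describes letters and is no measurement of binding.
Isg15: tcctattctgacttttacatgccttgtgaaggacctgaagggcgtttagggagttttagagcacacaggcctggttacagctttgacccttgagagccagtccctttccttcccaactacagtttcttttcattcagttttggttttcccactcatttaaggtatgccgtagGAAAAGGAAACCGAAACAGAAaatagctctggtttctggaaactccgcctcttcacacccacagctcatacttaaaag
Ifit1: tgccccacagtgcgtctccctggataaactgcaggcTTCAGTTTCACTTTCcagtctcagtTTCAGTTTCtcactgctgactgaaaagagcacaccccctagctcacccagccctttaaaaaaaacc
Irf1: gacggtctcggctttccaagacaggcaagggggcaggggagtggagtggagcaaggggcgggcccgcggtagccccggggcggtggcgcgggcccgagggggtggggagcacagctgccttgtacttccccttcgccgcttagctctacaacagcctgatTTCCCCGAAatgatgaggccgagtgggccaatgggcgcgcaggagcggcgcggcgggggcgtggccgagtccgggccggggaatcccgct
B2m: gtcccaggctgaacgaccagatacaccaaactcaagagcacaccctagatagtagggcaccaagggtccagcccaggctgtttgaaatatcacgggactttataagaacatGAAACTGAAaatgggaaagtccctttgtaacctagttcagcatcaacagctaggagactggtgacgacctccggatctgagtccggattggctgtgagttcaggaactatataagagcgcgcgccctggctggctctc

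Among the freshly sorted cells, KCs had the highest levels of these genes. The mean was highest in KCs for 39 of the 44 genes (26 type I, 7 interferon-gamma and 6 class I), and in PMs for the other 5. AMs were lowest for 26 genes and MG for 16. Summed over the 28 type I genes, sorted KCs held 5126, 5006 and 5381 CPM, PMs 2586 to 3152, MG 488 to 538 and AMs 354 to 404. Interferon-gamma genes summed to 890.5 to 1217 CPM in KCs, 446.5 to 898.5 in PMs, 327 to 340.5 in MG and 187 to 214.5 in AMs. The KC and PM ranges thus overlapped for the interferon-gamma genes but not for the type I genes. Class I genes summed to 11590 to 13490 CPM in KCs and to 12340 to 14470 CPM in PMs, which overlapped, and to 6678 to 7457 in AMs and 3390 to 3463 in MG.

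In an edgeR quasi-likelihood test of sorted KCs against the mean of the 3 other sorted populations, 43 of 44 genes were higher in KCs at an adjusted p below 0.05 and 0 were lower. Of all 15732 genes tested, 24.1% were higher and 12.4% lower. The count was 43 higher and 0 lower with DESeq2 and limma-voom too, and 0 genes had an unadjusted p below 0.05 in the lower direction. The median log2 difference over the set was 2.65, against 0.11 over all genes. By class, the medians were 3.56 for type I, 2.10 for interferon-gamma and 1.19 for class I genes. For 31 genes (24 type I, 3 interferon-gamma and 4 class I) all 3 KC libraries lay above all 9 others, which was so for 7.77% of all genes. Tapbp, which encodes tapasin, was the gene that did not pass, with a log2 difference of -0.14 ± 0.12 (SE) and an adjusted p of 0.43. Without sorted KC replicate 1, 42 genes were higher. In the same comparison 8 of 8 tested T and NK cell markers, 7 of 8 B cell markers, 6 of 8 hepatocyte markers, 6 of 7 endothelial markers, 4 of 5 monocyte markers and 3 of 4 plasmacytoid dendritic cell markers were higher in KCs. In KCs 1 hepatocyte, 1 endothelial and 1 plasmacytoid dendritic cell marker were lower. Summed over its 8 markers, the T and NK cell list stood at 24.8 to 283.7 CPM in sorted KCs and at 0.0541 to 8.58 CPM in the other sorted libraries. Mean sums for B cells (593.5 against 271.3 CPM) and plasmacytoid dendritic cells (142.6 against 113.2 CPM) were higher in sorted MG than in KCs. That for hepatocytes was higher in sorted PMs (828.3 against 266.5 CPM). The mean log2 CPM over the markers of each list was higher in KCs instead. It was 3.87 in KCs against -1.13 in MG for B cells, and 0.55 against -0.08 for plasmacytoid dendritic cells. For hepatocytes it was 3.07 in KCs against -2.17 in PMs. Endothelial and monocyte sums were highest in KCs, at means of 681.9 and 203.9 CPM. The part of these cells in the result was not tested. Each of the 44 genes differed among the sorted populations in a test of any difference, as did 70.9% of all genes.

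**Figure D1:**
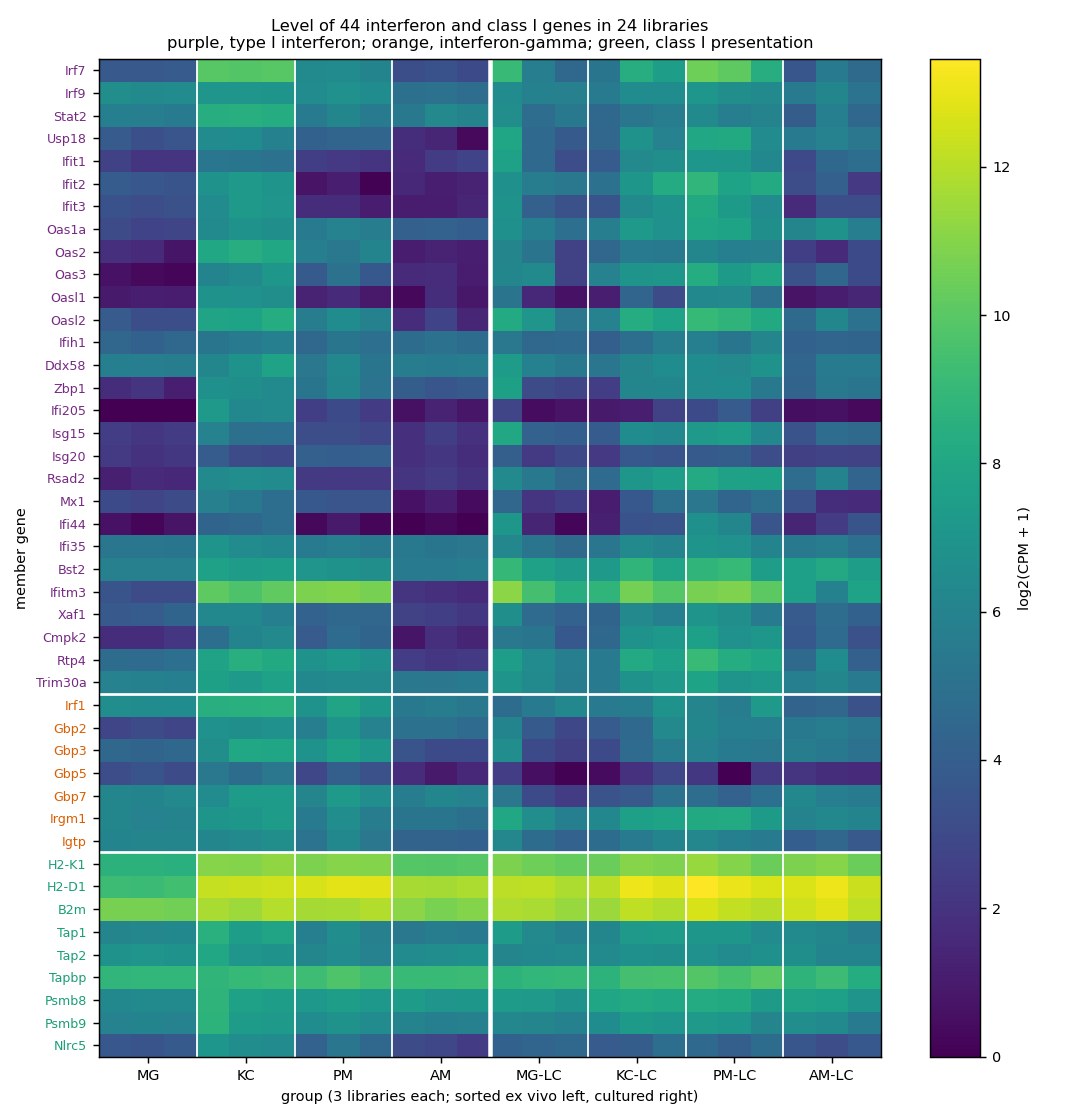
Level of each of the 44 genes (rows, in 3 classes) in each of the 24 libraries (columns, by group), as log2(CPM + 1) on a colour scale. The sorted KC columns are the brightest of the sorted columns for 39 genes by mean level, and the cultured columns vary more between libraries of a group, with KC-LC replicate 1 the darkest of the KC-LC columns in all 44 rows.

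Irf7, the factor that amplifies type I interferon production, marked this order most clearly. Its levels were 992.5, 937.5 and 982.7 CPM in sorted KCs, 65.7 to 88.9 CPM in PMs, 12.6 to 13.4 CPM in MG and 6.99 to 9.59 CPM in AMs. The KC libraries differed little from each other and no other sorted library came near them, a log2 difference of 5.60 ± 0.12 (adjusted p = 1.01e-10). In vitro, Irf7 stood at 37.2, 333 and 180.2 CPM in KC-LCs, 1411, 1091 and 327 CPM in PM-LCs, 552, 53.1 and 21.7 CPM in MG-LCs and 11.3, 45.5 and 24.1 CPM in AM-LCs. Libraries of a culture thus spread widely, and PM-LCs reached the level of sorted KCs in 2 of 3 libraries.

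Stat2, a subunit of the interferon-activated complex, stood at 334, 353.5 and 319 CPM in sorted KCs, against 43.3 to 71.2 CPM in PMs, 45.02 to 54.7 CPM in MG and 41.8 to 79.2 CPM in AMs. Its levels in vitro were 22.2, 38.0 and 48.4 CPM in KC-LCs, 53.3 to 81.2 CPM in PM-LCs, 27.2 to 98.1 CPM in MG-LCs and 14.4 to 54.7 CPM in AM-LCs. Sorted KCs alone were high, and the remaining 7 groups overlapped in part. The log2 difference between sorted KCs and the other sorted cells was 2.63 ± 0.18. Irf9, the DNA-binding subunit of the complex, differed less, at 124.5 to 128 CPM in sorted KCs and 84.8 to 110 CPM in sorted MG and PMs.

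Isg15, a ubiquitin-like protein attached to target proteins, stood at 61.3, 30.2 and 28.9 CPM in sorted KCs, 6.21 to 8.07 CPM in PMs, 3.30 to 4.45 CPM in MG and 2.69 to 4.65 CPM in AMs. In vitro it stood at 14.02, 90.8 and 78.0 CPM in KC-LCs, 155, 186 and 76.8 CPM in PM-LCs, 269, 17.8 and 15.0 CPM in MG-LCs and 9.90, 26.8 and 23.7 CPM in AM-LCs. Every cultured library lay above every sorted library of its population in PMs, MG and AMs, while KCs and KC-LCs overlapped. Ifit1, which binds viral RNA, showed the same layout, at 37.5, 36.1 and 32.7 CPM in sorted KCs, 3.17 to 4.64 CPM in PMs, 3.13 to 5.18 CPM in MG and 2.15 to 5.42 CPM in AMs. In vitro, Ifit1 stood at 14.02, 78.3 and 101 CPM in KC-LCs, 76.9 to 138 CPM in PM-LCs, 206, 23.6 and 8.20 CPM in MG-LCs and 6.70, 21.6 and 27.8 CPM in AM-LCs. The promoter stretches of Isg15 and Ifit1 are those printed above with 3 matches each.

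Ifitm3, a membrane protein that blocks virus entry, had another order. PMs held the most among sorted cells, at 1780, 1950 and 1661 CPM, followed by KCs at 1119, 837 and 1169 CPM. MG held 7.44 to 10.4 CPM and AMs 2.09 to 3.23 CPM, so that sorted PMs and KCs on one side and sorted MG and AMs on the other did not overlap. MG-LCs stood at 2181, 717 and 330.3 CPM, AM-LCs at 194.8, 59.1 and 222.5 CPM, KC-LCs at 444, 1594 and 949.8 CPM and PM-LCs at 1083 to 1855 CPM. Every MG-LC and AM-LC library lay above every sorted library of its population.

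**Figure D2:**
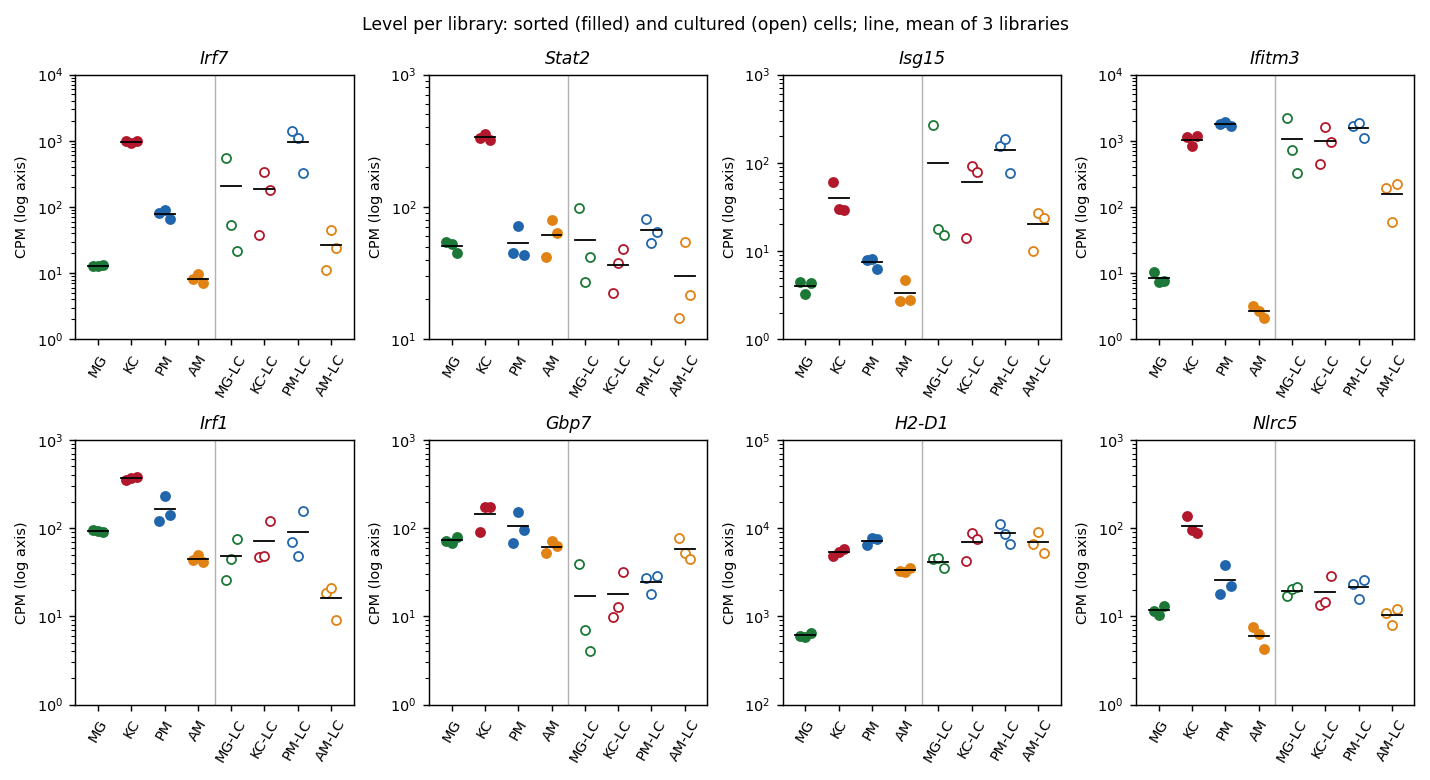
Level in CPM (log axis) of 8 genes, Irf7, Stat2, Isg15, Ifitm3, Irf1, Gbp7, H2-D1 and Nlrc5, in each library, with filled points for sorted cells, open points for cultured cells and a line at the mean of the 3 libraries. Sorted KCs stand alone at the top for Stat2 (319 to 353.5 CPM) and Nlrc5 (88.5 to 135 CPM), whereas for H2-D1 (4859 to 5808 CPM) they lie below sorted PMs (6432 to 7666 CPM).

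The comparison of sorted KCs with KC-LCs asks how far this high level lasted in culture. In all, 10 of the 44 genes were higher ex vivo and 0 were lower, where 19.4% of all 13629 genes were higher and 14.4% lower. The 10 comprised 5 of 28 type I genes (Irf7, Stat2, Oas2, Oasl1 and Ifi205), 4 of 7 interferon-gamma genes (Irf1, Gbp3, Gbp5 and Gbp7) and 1 of 9 class I genes (Nlrc5). The share of the set called higher was thus near that over all genes, and so was the share of the type I genes. DESeq2 gave 13 higher and 0 lower, limma-voom 12 and 0, and no gene had an unadjusted p below 0.05 in the lower direction. The median log2 difference was 0.60 for type I, 2.39 for interferon-gamma and 0.33 for class I genes, against 0.01 over all genes.

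Of the 4 regulators, 2 passed. Irf7, with the values above, was higher ex vivo by 2.43 ± 0.68 on the log2 scale (adjusted p = 0.028). Stat2 was higher by 3.25 ± 0.33 (adjusted p = 0.00077), and no KC-LC library came near the sorted ones. Irf9 and the deconjugase Usp18, which restrains the type I receptor, did not pass, at 0.75 ± 0.30 (adjusted p = 0.094) and 0.29 ± 0.55 (adjusted p = 0.71).

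Within the OAS family, whose enzymes make the messenger that activates RNase L, the members split. Oas2 stood at 265.5, 335 and 262 CPM in sorted KCs and at 20.8, 44.5 and 43.1 CPM in KC-LCs, a log2 difference of 3.02 ± 0.35 (adjusted p = 0.0012). Oasl1, which restrains Irf7 translation, stood at 119, 109 and 99.1 CPM against 1.20, 20.2 and 7.36 CPM, a difference of 3.54 ± 0.85 (adjusted p = 0.016). For both genes the groups did not overlap. Oas1a, Oas3 and Oasl2 had log2 differences of -0.12 to 0.40 and did not pass. The 3 Ifit genes did not pass either, at -0.83 to 0.85.

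Ifi205, a member of the DNA-sensing PYHIN family, had the largest difference of the set between KCs and KC-LCs, at 156, 76.6 and 87.2 CPM ex vivo and 0.936, 1.20 and 5.12 CPM in vitro, 5.50 ± 0.76 on the log2 scale (adjusted p = 0.0023). The RNA sensors Ifih1 and Ddx58 and the nucleic acid sensor Zbp1 did not pass, at 0.56 to 1.05. The 12 other effectors did not pass, and their log2 differences ran from -0.65 for Cmpk2 to 1.73 for Ifi44. Isg15 had a difference of -0.57 ± 0.64 (adjusted p = 0.52), Ifit1 one of -0.83 ± 0.60 (adjusted p = 0.32) and Ifitm3 one of 0.10 ± 0.46 (adjusted p = 0.88).

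Of the interferon-gamma genes, 4 of 7 were higher in sorted KCs. Irf1, the factor that relays interferon-gamma to later genes and whose promoter match is printed above, stood at 354, 373 and 383 CPM in sorted KCs and 47.4, 48.3 and 121 CPM in KC-LCs, a log2 difference of 2.39 ± 0.41 (adjusted p = 0.0049). The guanylate-binding proteins attack vacuoles of intracellular microbes. Gbp3 stood at 99.1, 267 and 242 CPM ex vivo and 6.99, 25.1 and 48.5 CPM in vitro (2.94 ± 0.70, adjusted p = 0.015). Gbp5 stood at 40.4, 26.1 and 39.1 CPM against 0.336, 2.77 and 6.31 CPM (3.52 ± 0.87, adjusted p = 0.018). Gbp7 stood at 89.6, 172 and 171 CPM against 9.94, 12.6 and 31.7 CPM (3.03 ± 0.51, adjusted p = 0.0047). In these 4 genes each sorted library lay above each KC-LC library. Gbp2 (1.52 ± 0.60, adjusted p = 0.088) and Igtp (0.86 ± 0.36, adjusted p = 0.098) did not pass, and Irgm1, an immunity-related GTPase, had a difference of -0.15 ± 0.40.

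Of the class I genes, Nlrc5, the transactivator, passed, at 135, 94.3 and 88.5 CPM in sorted KCs and 13.5, 14.4 and 28.6 CPM in KC-LCs (2.53 ± 0.37, adjusted p = 0.0028). The heavy chain genes did not pass, with log2 differences of 0.33 ± 0.30 for H2-K1 and -0.33 ± 0.38 for H2-D1, and neither did B2m, at -0.10 ± 0.34. The loading and cleavage genes had differences of 1.04 ± 0.42 for Tap1 (adjusted p = 0.092), 0.98 ± 0.42 for Psmb9 (adjusted p = 0.11) and 0.09 ± 0.36 for Psmb8 (adjusted p = 0.86).

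Single libraries bore on some of these calls. Stat2, Oas2, Ifi205, Irf1, Gbp7 and Nlrc5 passed with every library left out in turn and under every other setting tried. Irf7 lost its call without sorted KC replicate 2, without sorted KC replicate 3 and without KC-LC replicate 3, where the adjusted p reached 0.0879 at most. Gbp3 and Gbp5 lost theirs without KC-LC replicate 2, and Oasl1 without KC-LC replicate 3. KC-LC replicate 1 was the lowest KC-LC library for all 44 genes, and without it Ifit1 was lower ex vivo, at -1.34 (adjusted p = 0.0174), so that 10 genes were higher and 1 lower. Without sorted KC replicate 1, which held the most T and NK cell transcripts, 11 genes were higher and 0 lower.

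Markers of other cells moved with the same contrast. In sorted KCs against KC-LCs, 7 of 7 tested T and NK cell markers, 8 of 8 B cell markers, 7 of 7 hepatocyte markers, 5 of 7 endothelial markers, 4 of 4 monocyte markers, 1 of 1 neutrophil markers and 3 of 3 plasmacytoid dendritic cell markers were higher, and 0 of 3 fibroblast markers were. Of the endothelial markers, 1 was lower. Summed levels were 169 to 382 CPM against 9.29 to 21.0 CPM for B cells, 468 to 846 against 47.0 to 72.6 CPM for endothelium, 134 to 342 against 1.31 to 4.64 CPM for monocytes and 93.8 to 135.5 against 40.7 to 70.1 CPM for plasmacytoid dendritic cells. Alb, a defining hepatocyte transcript, stood at 129, 41.2 and 71.5 CPM in sorted KCs and at 0 to 0.0252 CPM in KC-LCs. The library rich in T and NK cell transcripts was the highest sorted KC library for 18 of the 44 genes and the lowest for 17, with Gbp3 and Gbp7 among the latter. Tap1, Psmb8 and Psmb9 were highest there. Sorted KC replicates 1, 2 and 3 held 377, 176 and 234 CPM of Tap1, 434, 207 and 182 CPM of Psmb8, and 411, 175 and 157 CPM of Psmb9. The part of these cells in the results was not tested.

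In MG the type I genes that passed were lower ex vivo. Of the 44 genes, 20 were lower ex vivo than in MG-LCs and 1 was higher, where 25.2% of all 14416 genes were lower and 21.2% higher. The lower genes were 15 of 28 type I and 5 of 9 class I genes, and 0 of 7 interferon-gamma genes passed with edgeR. Of these 7, 2 had an unadjusted p below 0.05, DESeq2 called 2 higher and 1 lower, and limma-voom 2 higher. Medians were -3.26 for type I, 0.74 for interferon-gamma and -0.80 for class I genes, against -0.03 over all genes. Ifitm3 (-7.04 ± 0.88, adjusted p = 0.0025) and Oas3 (-7.41 ± 1.29, adjusted p = 0.0065) differed most among well-expressed genes. Oas3 stood at 0.573, 0.271 and 0.119 CPM in sorted MG and at 72.2, 83.4 and 5.09 CPM in MG-LCs. Zbp1 stood at 2.36, 3.06 and 1.22 CPM against 201, 7.39 and 6.14 CPM (-5.08 ± 1.58, adjusted p = 0.040). Rsad2, or viperin, stood at 1.30, 2.00 and 1.93 CPM against 84.0, 42.5 and 24.1 CPM (-4.90 ± 0.56, adjusted p = 0.0020).

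Class I molecules themselves were lower in sorted MG. H2-D1 stood at 603, 585 and 655 CPM ex vivo and 4478, 4528 and 3514 CPM in MG-LCs, a log2 difference of -2.81 ± 0.36 (adjusted p = 0.0027), and H2-K1 at 395.5, 403 and 372 CPM against 1764, 1435 and 1242 CPM, a difference of -1.97 ± 0.28 (adjusted p = 0.0037). B2m was lower by 1.08 on the log2 scale (-1.08 ± 0.35, adjusted p = 0.045), at 1536 to 1636 CPM against 2666 to 3760 CPM. Nlrc5 (-0.80 ± 0.21) and Psmb8 (-0.86 ± 0.20) were lower too, and Tap2, a transporter subunit, was higher (0.58 ± 0.15, adjusted p = 0.024). None of the H2-D1 and H2-K1 values overlapped between the groups, and these genes stood nearly level across the 3 MG-LC libraries, unlike the type I genes.

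MG-LC replicate 1, the library rich in fibroblast transcripts, was the highest MG-LC library for 38 of the 44 genes. Type I genes summed to 6145 CPM in it and to 1906 and 1033 CPM in the other MG-LC libraries, all above the 488 to 538 CPM of sorted MG. Without it, 20 genes were lower and 6 higher ex vivo, and Gbp3 turned from -0.87 (adjusted p = 0.54) to 1.74 (adjusted p = 0.00302). Without MG-LC replicate 3, 28 were lower and 2 higher. Without sorted MG replicate 1, 2 or 3, 9, 8 and 8 genes were lower and 0 higher.

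In PMs the type I genes that passed were lower ex vivo and a pair of GBPs was higher. Of the 44 genes, 20 were lower ex vivo and 2 higher, where 16.8% of 13581 genes were lower and 12.1% higher. The lower genes were 19 of 28 type I genes and Irgm1, and the higher ones Gbp7 and Gbp3. With edgeR 0 of 9 class I genes passed, 3 had an unadjusted p below 0.05, and DESeq2 and limma-voom called 2 and 1 lower. Medians were -1.78, 0.83 and -0.36 for the 3 classes, against -0.01 over all genes. Ifit2 had the largest difference, at 0.635, 1.23 and 0.0542 CPM in sorted PMs and 459.9, 223 and 303 CPM in PM-LCs (-9.00 ± 0.89, adjusted p = 0.00049). Ifi44, of unsettled function, followed (-7.11 ± 1.12), and Ifit3 (-6.52 ± 0.56) and Rsad2 (-5.97 ± 0.23) came next. Ifit2 and Ifi44 had 66 and 47 reads over the sorted PM libraries. The 0.0542 CPM of Ifit2 in replicate 3 lay below the 0.0814 CPM of 3 reads there. The sizes of the Ifit2 and Ifi44 differences thus depend in part on few reads. Gbp7 stood at 67.8, 153 and 94.9 CPM ex vivo and 27.1, 18.1 and 28.9 CPM in vitro (2.09 ± 0.34, adjusted p = 0.0043). Gbp3 stood at 119, 203 and 140 CPM against 61.7, 48.3 and 40.6 CPM (1.62 ± 0.26, adjusted p = 0.0037). Irgm1 went the other way, at 47.0, 94.5 and 49.3 CPM against 284, 293 and 159 CPM (-1.95 ± 0.36, adjusted p = 0.0069). H2-K1 (-0.04 ± 0.24), H2-D1 (-0.28 ± 0.22) and B2m (-0.57 ± 0.20, adjusted p = 0.071) did not pass. Fibroblast and mesothelium markers summed to 0.191 to 12.8 CPM in sorted PMs and to 22.9, 2208 and 365.5 CPM in PM-LCs, and B cell markers to 426 CPM in PM-LC replicate 1 against 7.98 and 8.56 CPM in the other PM-LC libraries. Their part in the result was not tested. Without PM-LC replicate 1, 19 genes were lower and 2 higher, and without PM-LC replicate 2, 21 and 3.

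In AMs, genes of each class were lower ex vivo. Of the 44 genes, 26 were lower and 2 higher, where 25.9% of 13196 genes were lower and 22.9% higher. They comprised 19 type I, 3 interferon-gamma and 4 class I genes. Medians were -2.23, -0.56 and -0.61 for the 3 classes, against -0.04 over all genes. Ifitm3 (-5.92 ± 0.58, adjusted p = 0.00031) was followed by Usp18, at 2.33, 1.76 and 0.249 CPM ex vivo and 45.3, 62.3 and 39.1 CPM in AM-LCs (-5.08 ± 0.70, adjusted p = 0.0012), and Oasl2 (-3.74 ± 0.60). Gbp3 was lower ex vivo in AMs, at 10.3, 7.03 and 7.09 CPM against 49.6, 41.8 and 33.1 CPM (-2.35 ± 0.23, adjusted p = 0.00031), whereas it was higher ex vivo in KCs and PMs. Irgm1 (-1.02 ± 0.13) and Gbp2 (-0.56 ± 0.16) were lower, and Irf1 was higher (1.47 ± 0.28, adjusted p = 0.0049), at 43.2, 49.2 and 41.6 CPM against 18.6, 21.0 and 9.01 CPM. The other gene that was higher was Ifih1 (0.57 ± 0.18, adjusted p = 0.034), and its call was lost without each sorted AM library, without AM-LC replicate 1 or 2. B2m (-1.55 ± 0.19), H2-D1 (-1.08 ± 0.19), H2-K1 (-0.86 ± 0.14) and Tap1 (-0.61 ± 0.18) were lower. H2-D1 stood at 3147 to 3514 CPM in sorted AMs and at 5274 to 9015 CPM in AM-LCs, without overlap. Fibroblast and mesothelium markers summed to 0.0746 to 0.657 CPM in sorted AMs and to 17.1, 181 and 1667 CPM in AM-LCs, and neutrophil markers to 6.50 to 8.16 CPM against 34.5 to 93.1 CPM. Their part in the result was not tested. Without AM-LC replicate 3, the library with the most fibroblast transcripts, 29 genes were lower and 2 higher.

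**Figure D3:**
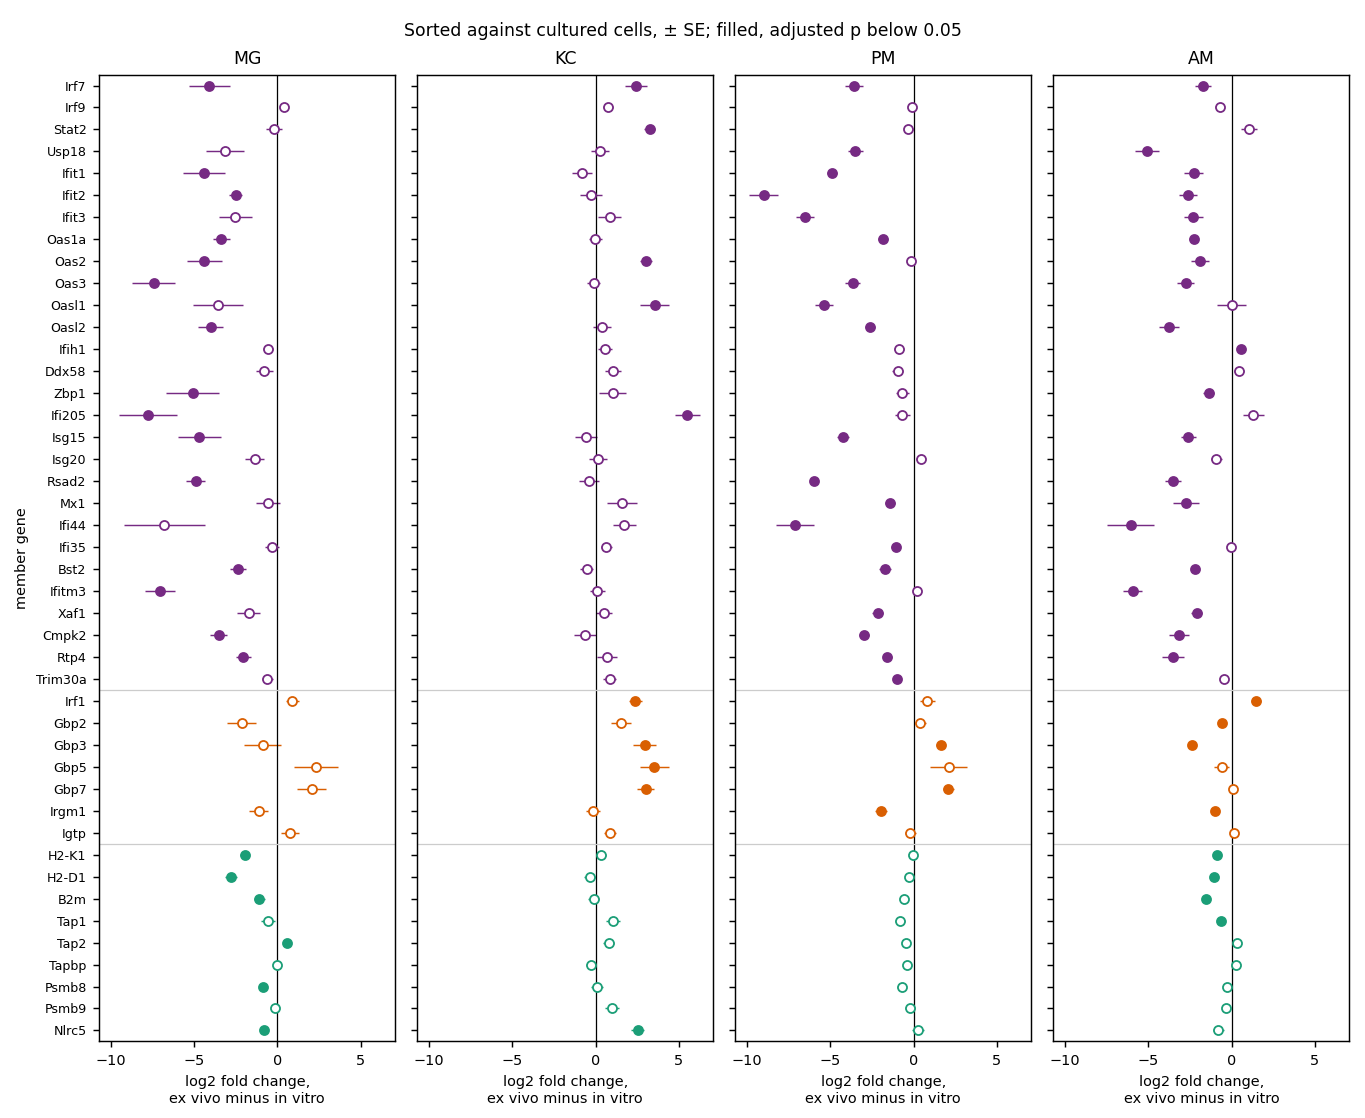
Log2 difference ex vivo minus in vitro (x axis, ± SE from edgeR) of each of the 44 genes in KCs, MG, PMs and AMs, with filled points for an adjusted p below 0.05. In KCs the 10 filled points lie above 0, whereas in MG, PMs and AMs 20, 20 and 26 filled points lie below 0 and 1, 2 and 2 above it.

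Whether the difference between ex vivo and in vitro itself differed in KCs was tested as an interaction, the KC difference minus the mean of the differences in MG, PMs and AMs. It was positive for 30 of the 44 genes and negative for 0, where 10.4% of 17408 genes were positive and 5.06% negative. The 30 were 22 of 28 type I, 2 of 7 interferon-gamma and 6 of 9 class I genes, with medians of 3.17, 1.57 and 1.01, against 0.16 over all genes. DESeq2 gave 35 and limma-voom 28, each with 0 negative, and no gene had an unadjusted p below 0.05 in the negative direction. With RLE size factors, the median over all genes rose by 0.12 and 32 genes passed. Irf7 (5.50 ± 1.07, adjusted p = 0.0018), Oas2 (5.12 ± 0.76, adjusted p = 0.00017), Rsad2 (4.38 ± 0.65, adjusted p = 0.00017), Ifitm3 (4.28 ± 0.67, adjusted p = 0.00029) and Stat2 (3.02 ± 0.53, adjusted p = 0.00077) were among the type I genes. Effectors such as Isg15 (3.22 ± 0.96, adjusted p = 0.028), Ifit1 (2.98 ± 0.95, adjusted p = 0.040), Ifit2 (4.41 ± 0.84), Ifit3 (4.57 ± 0.98) and Oas3 (4.44 ± 0.85) passed here, although they did not pass between KCs and KC-LCs. The differences of these 5 genes ran from -0.83 to 0.85 in KCs and from -9.00 to -2.27 in the other populations.

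Nlrc5 passed with 2.92 ± 0.38 (adjusted p = 4.97e-05), the smallest adjusted p of the set. It was followed among the class I genes by Tap1 (1.65 ± 0.44), H2-K1 (1.24 ± 0.27), Psmb9 (1.18 ± 0.39), H2-D1 (1.01 ± 0.32) and B2m (0.91 ± 0.29). Gbp3 (3.43 ± 0.92, adjusted p = 0.017) and Gbp2 (2.23 ± 0.73, adjusted p = 0.043) passed among the interferon-gamma genes. Irf1 (1.28 ± 0.51, adjusted p = 0.10), Gbp5 (2.19 ± 1.30) and Gbp7 (1.57 ± 0.68, adjusted p = 0.13) did not, so that for these the higher level ex vivo was not shown to differ from that in the other populations. Without KC-LC replicate 1, 18 genes passed (16 type I, 0 interferon-gamma and 2 class I), without sorted KC replicate 1, 23 (19, 1 and 3), and without MG-LC replicate 1, 30.

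**Figure D4:**
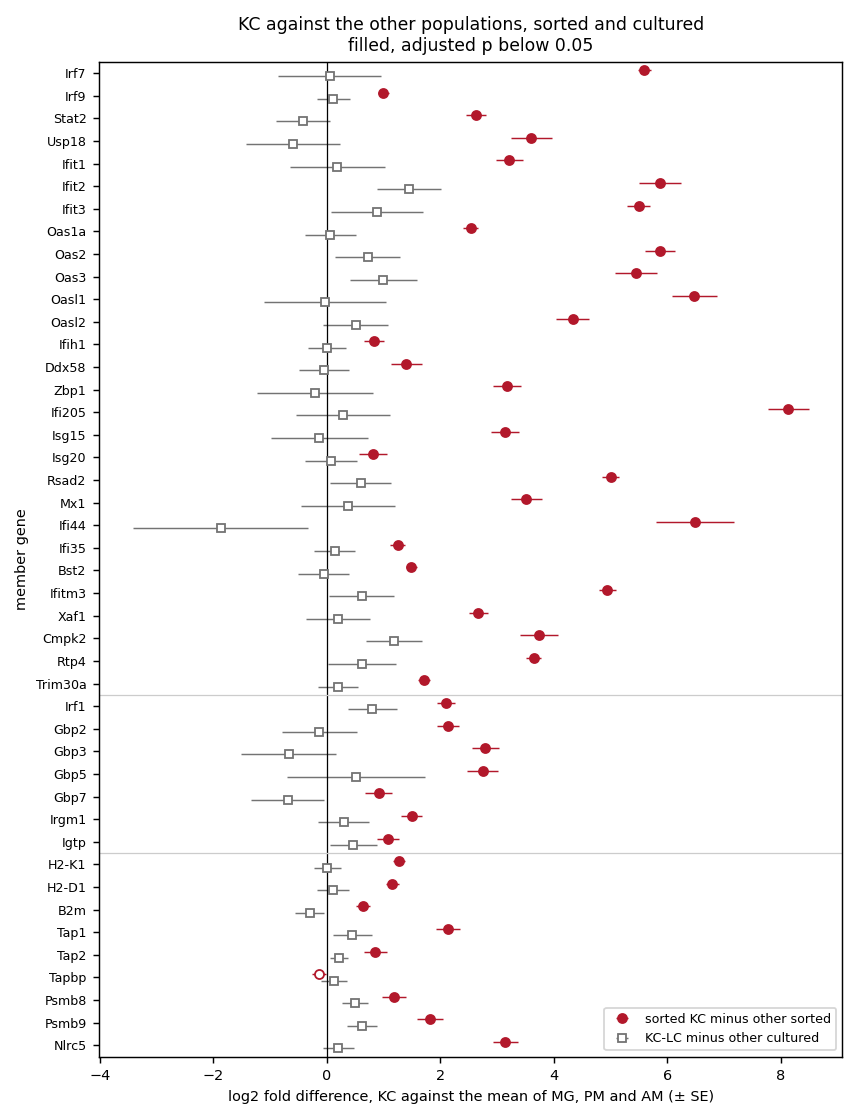
Log2 difference of sorted KCs from the mean of the other sorted populations, and of KC-LCs from the mean of the other cultures, for each of the 44 genes (± SE from edgeR, filled points for an adjusted p below 0.05). Of the sorted differences 43 are filled and positive, from 0.64 for B2m to 8.13 for Ifi205, and none of the cultured differences is filled. The size of the Ifi205 value depends in part on 1 read over the sorted MG libraries.

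No lead of KCs was detected in vitro. Of the 44 genes, 0 differed between KC-LCs and the mean of the other cultures with edgeR in either direction, where 0.0135% of 14813 genes were higher and 0.0945% lower. DESeq2 and limma-voom gave 0 too, and 3 genes had an unadjusted p below 0.05 (Ifit2, Cmpk2 and Psmb9, each higher in KC-LCs). DESeq2 called many more of all genes in this comparison than edgeR, 294 higher and 1123 lower against 2 and 14. Median differences were 0.16, 0.30 and 0.20 for the 3 classes. The intervals were wide for type I genes, with a 95% interval of -2.06 to 2.15 on the log2 scale for Irf7 and -2.11 to 1.84 for Isg15. They were narrower for Stat2 (-1.52 to 0.66), Irf1 (-0.19 to 1.80), Nlrc5 (-0.42 to 0.82) and H2-D1 (-0.54 to 0.77). The upper bound lay below the gene's log2 difference between sorted KCs and the other sorted cells for 40 of the 44 genes, Irf7 and Isg15 included, and not for Isg20, Gbp5, Igtp and Tapbp. This count leaves out the error of the sorted difference and is no test of a change between sorted and cultured cells.

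The order of the populations in culture was another one. PM-LCs had the highest mean for 38 of the 44 genes, including all 28 type I genes, and AM-LCs the lowest for 33. Type I genes summed to 8155, 6845 and 4224 CPM in PM-LCs, 1256, 4714 and 3767 CPM in KC-LCs, 6145, 1906 and 1033 CPM in MG-LCs and 879 to 1309 CPM in AM-LCs, so that KC-LCs and MG-LCs overlapped with each other and with PM-LCs. A test of any difference among the cultures called 3 of 44 genes (Ifit2, Oas3 and Cmpk2), where 7.85% of all genes differed. The count was 17 with DESeq2 and 19 without MG-LC replicate 1. It was 0 without any AM-LC library or without PM-LC replicate 1, and 1 without KC-LC replicate 2 or 3 or PM-LC replicate 2 or 3. At an unadjusted p below 0.05, 19 genes differed.

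The ratio of the highest to the lowest library of a group had a median over the 44 genes of 3.96 in MG-LCs and 3.17 in KC-LCs, 2.02 in AM-LCs and 1.85 in PM-LCs, against 1.22, 1.42, 1.35 and 1.55 in sorted MG, KCs, AMs and PMs. In KC-LCs the median SD of log2 CPM was 0.88 over the set and 0.35 over all genes. It was 1.26 for type I, 0.88 for interferon-gamma and 0.39 for class I genes. In MG-LCs it was 1.01 over the set and 0.61 over all genes, with 1.36 for type I and 0.21 for class I genes. The values for the set and for all genes were 0.52 and 0.37 in AM-LCs and 0.47 and 0.51 in PM-LCs. Sorted KCs were the reverse, at 0.27 over the set and 0.55 over all genes. AM-LC replicate 2 was the highest AM-LC library for 30 genes and PM-LC replicate 3 the lowest PM-LC library for 29.

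The remaining named genes in all groups filled in the pattern. Irf1 stood at 119, 232 and 139 CPM in sorted PMs and 91.3 to 95.9 CPM in sorted MG, against 48.8 to 156 CPM in PM-LCs and 26.0 to 75.6 CPM in MG-LCs. Gbp2 stood at 102 to 112 CPM in sorted KCs, 53.3 to 123 CPM in PMs, 25.4 to 32.1 CPM in AMs and 6.01 to 7.90 CPM in MG. Sorted KCs and PMs overlapped for Gbp2. In vitro Gbp2 stood at 13.3, 23.1 and 79.7 CPM in KC-LCs, 53.8 to 72.6 CPM in PM-LCs, 38.4 to 50.9 CPM in AM-LCs and 6.69 to 65.3 CPM in MG-LCs. Nlrc5 stood at 18.0 to 37.7 CPM in sorted PMs, 10.3 to 13.2 CPM in MG and 4.25 to 7.50 CPM in AMs. All cultures lay between 7.98 and 28.6 CPM of Nlrc5, below every sorted KC library.

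For class I molecules the sorted order was PM and KC, then AM, then MG. H2-K1 stood at 1995 to 2425 CPM in sorted KCs, 1760.0 to 2087 CPM in PMs, 929.6 to 997 CPM in AMs and 372 to 403 CPM in MG, and KCs and PMs overlapped. In vitro it stood at 1326 to 2063 CPM in KC-LCs, 1392 to 2686 CPM in PM-LCs, 1399 to 2056 CPM in AM-LCs and 1242 to 1764 CPM in MG-LCs, and these ranges overlapped. B2m stood at 2885 to 3908 CPM in sorted KCs, 3142 to 3776 CPM in PMs, 1733 to 2257 CPM in AMs and 1536 to 1636 CPM in MG, and at 2721 to 4670 CPM in KC-LCs, 4121 to 6301 CPM in PM-LCs, 4539 to 7259 CPM in AM-LCs and 2666 to 3760 CPM in MG-LCs. Per kilobase of exon, the mean level of B2m was 3952 CPM in sorted KCs, that of H2-D1 2079 CPM, that of Tap1 47.9 CPM and that of Nlrc5 12.5 CPM. The chains of the molecule were thus far more abundant per length than the transporter and the transactivator.

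The immunoproteasome subunits Psmb8, Psmb9 and Psmb10 replace Psmb5, Psmb6 and Psmb7 in the proteasome and favour peptides that fit class I molecules. In CPM per kilobase of exon, the immunoproteasome subunits made up 72.5%, 65.3% and 68.0% of the 6 in sorted KCs and 34.5%, 38.7% and 42.6% in KC-LCs. The share was 55.3%, 62.6% and 56.5% in sorted PMs and 40.0%, 33.0% and 40.3% in PM-LCs. It was 54.1%, 55.7% and 55.2% in sorted MG and 29.3%, 31.7% and 24.8% in MG-LCs, and 41.1%, 44.8% and 43.1% in sorted AMs and 26.9%, 21.9% and 20.6% in AM-LCs. In each population the sorted libraries lay above the cultured ones. The constitutive genes moved most in these shares. Psmb5 (-1.23 ± 0.30) and Psmb6 (-1.72 ± 0.28) were lower ex vivo in KCs, and both were lower ex vivo in the other 3 populations too. Psmb7 was lower ex vivo in KCs (-0.92 ± 0.27), MG and AMs. Psmb9 stood at 157 to 411 CPM in sorted KCs and 93.6 to 161 CPM in KC-LCs, at 88.0 to 119 and 68.8 to 152 CPM in PMs, at 60.6 to 65.6 and 58.9 to 74.4 CPM in MG, and at 54.3 to 64.2 and 47.0 to 96.5 CPM in AMs. Psmb8 stood at 182 to 434 and 237 to 301 CPM in KCs, 141 to 181 and 162 to 313 CPM in PMs, 76.4 to 86.1 and 114 to 168 CPM in MG, and 131 to 166 and 122 to 217 CPM in AMs. Tap1 stood at 176 to 377 and 70.2 to 168 CPM in KCs, 54.7 to 95.2 and 90.3 to 139.7 CPM in PMs, 68.3 to 76.1 and 59.5 to 171 CPM in MG, and 41.4 to 49.2 and 50.7 to 84.3 CPM in AMs. For Tap1 the sorted range lay above the cultured one in KCs and below it in AMs.

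The interferon genes themselves were rarely detected. Ifnb1, a type I interferon, had 0 reads in all 12 sorted libraries. In vitro it stood at 0, 4.41 and 37.8 CPM in KC-LCs, 0.549, 3.53 and 30.4 CPM in PM-LCs, 0.103, 0 and 21.4 CPM in MG-LCs and 0, 0.458 and 0 CPM in AM-LCs. Against 3 reads over the sorted group, the pooled cultured level was at least 508-fold higher in KCs, 446-fold in PMs, 273-fold in MG and 5.33-fold in AMs, a bound that rests on replicate 3 in the first 3 of these. Ifnb1 was lower ex vivo in PMs (adjusted p = 0.026), a call that was lost without each sorted PM library (adjusted p = 0.0693 to 0.0720) and with limma-voom (0.0946). In MG-LCs, KC-LCs and PM-LCs replicate 3 had the most Ifnb1 but not the highest summed level of the type I genes. Any effect of Ifnb1 on these genes was not tested. Ifna2 had 22 reads, in KC-LC replicate 3 (0.555 CPM), Ifna4 and Ifnl2 had 0 in all 24 libraries, and Ifnl3 stood at 0.0382 CPM in AM-LC replicate 2 and 0 elsewhere. Ifng stood at 1.93, 0.96 and 0 CPM in sorted KCs (108 reads), at 0.0497 CPM in sorted AM replicate 3 and at 0 elsewhere. It was at least 39.6-fold higher in sorted KCs than in KC-LCs, and it was highest in the replicate with the most T and NK cell transcripts. The effect of Ifng on other genes was not tested.

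**Figure D5:**
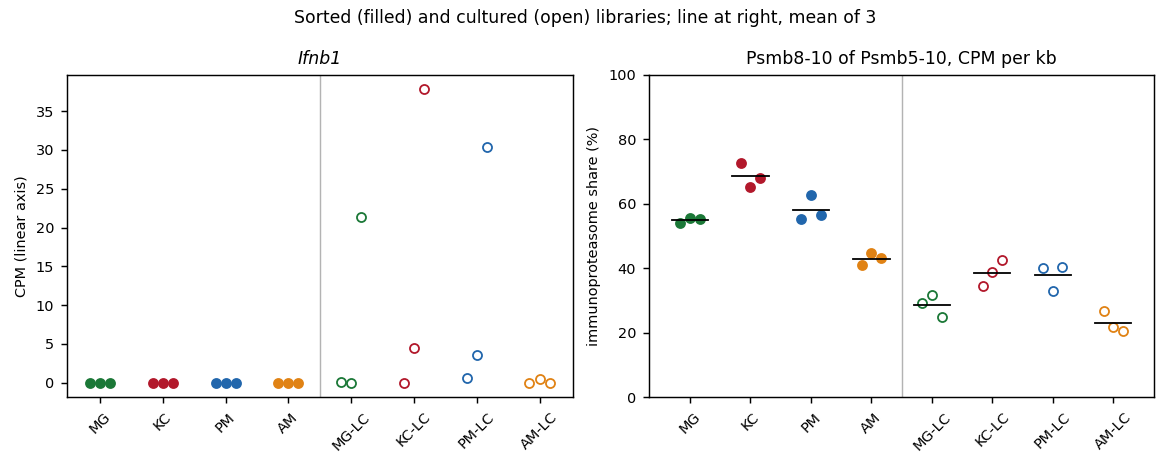
Ifnb1 level in CPM per library and the share of the immunoproteasome subunits among 6 proteasome subunits, in %, by population, with filled points for sorted and open points for cultured libraries. Ifnb1 is at 0 in the 12 sorted libraries and reaches 37.8 CPM in KC-LC replicate 3, and the share lies higher in sorted than in cultured libraries of each population.

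A list of 44 other genes of the pathway (ligands, receptors, kinases, other IRFs, sensors, other class I and proteasome genes) gave context. In KCs, 10 of 38 tested were higher ex vivo and 4 lower, where 19.4% and 14.4% of all genes were. The receptor chains Ifnar2 (1.15 ± 0.25) and Ifngr1 (1.495 ± 0.335) and the kinases Jak2 (0.90 ± 0.28) and Tyk2 (0.81 ± 0.21) were among the higher genes. Irf2 (1.94 ± 0.31), Irf3 (1.44 ± 0.20), the DNA sensor Cgas (1.14 ± 0.30), the adaptor Mavs (1.80 ± 0.29) and Tlr3 (0.93 ± 0.29) were higher too, and Socs3, an inhibitor of cytokine signalling, was lower (-2.83 ± 0.51, adjusted p = 0.0058), beside Psmb5, Psmb6 and Psmb7.

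In the other populations the list gave 8 higher and 9 lower of 38 in MG, where 21.2% and 25.2% of all genes were called, 4 and 11 of 38 in PMs (12.1% and 16.8%), and 9 and 14 of 37 in AMs (22.9% and 25.9%). The shares in MG were thus near those over all genes. Irf3, which switches on Ifnb1, was higher ex vivo in all 4 populations, by 0.78 ± 0.19 in MG, 0.72 ± 0.17 in PMs and 1.07 ± 0.11 in AMs. Irf2 was higher in PMs (2.93 ± 0.29) and AMs (1.66 ± 0.14) as in KCs. Cgas and Mavs were higher in MG (1.88 ± 0.17 and 0.72 ± 0.23) and AMs (1.70 ± 0.25 and 1.94 ± 0.15), and Ifngr1 in MG (1.71 ± 0.51) and AMs (1.72 ± 0.15). Other genes differed in direction. Ifnar2 was higher ex vivo in PMs (0.69 ± 0.15) and lower in AMs (-0.73 ± 0.12), Tlr3 was higher in MG (2.40 ± 0.18) and lower in PMs (-1.29 ± 0.37), and Tmem173, which encodes STING, was higher in MG (3.37 ± 0.28) and AMs (0.41 ± 0.14) and lower in PMs (-0.66 ± 0.19). Tmem173 stood at 599 to 680 CPM in sorted MG and 42.6 to 69.7 CPM in MG-LCs. H2-T23, a nonclassical class I gene, was lower ex vivo in MG (-0.92 ± 0.27), PMs (-1.32 ± 0.22) and AMs (-1.58 ± 0.22) and had a difference of 0.24 ± 0.41 in KCs.

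Counting limits some of these genes. Of the 44, 16 share exon bases with another annotated gene, among them Tap1 and Psmb9, which overlap each other by 212 bases, and the library kit does not mark strand. Near-identical copies exist for H2-K1 and H2-D1, Ifit3, Oas1a, Trim30a, Ifi205 and the GBPs, so that reads may be split between copies. Ifi205 rested on 1 read over the sorted MG libraries, so no fold is given for it there. The mouse strain is known to carry a defective Mx1, and its level, 28.04 to 56.1 CPM in sorted KCs and 0.323 to 11.9 CPM in the other sorted libraries, refers to the transcript.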

How the data were processed

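Bulk RNA-seq of 24 libraries was measured, 3 for each of 4 sorted and 4 cultured macrophage populations. The authors deposited whole-number read counts per gene for 45706 Ensembl genes. RNA of sorted or cultured cells went into SMARTer and Nextera XT libraries, which do not mark strand, and single reads were sequenced. The paper names Trimmomatic, STAR and the mm10 build. The submitters' processing notes name Trimmomatic 0.36, STAR 2.5.2b and the human build hg19, which mouse gene identifiers contradict. Each row had a gene identifier, and 0 columns belonged to no sample.

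Counts were normalised by TMM and tested with the quasi-likelihood test of edgeR 4.0.16 (R 4.3.3), two-sided, after a filter on low counts (filterByExpr, minimum count 10). Benjamini-Hochberg adjustment covered all genes tested, and genes were called at an adjusted p below 0.05. Each ex vivo against in vitro comparison used its 6 libraries, comparisons among sorted or among cultured cells used 12, and the interaction 24. The study's own test was limma-voom. DESeq2 1.42.0 and limma-voom (limma 3.58.1) were alternatives, beside RLE size factors, no filter, a fold threshold of 1.5, 1 model for all libraries, the replicate number as a block, and leaving out each library in turn. Errors are approximate standard errors, the absolute edgeR log2 difference divided by the square root of its quasi-likelihood F statistic. The intervals given for KC-LCs were built from these errors with the residual degrees of freedom and are approximate too. On simulated counts with 200 changed genes, the KC comparison (13629 genes) found 93 with 5 false calls and the KC interaction (17408 genes) 75 with 1. In the KC comparison, 0 of the genes with a log2 change of 1 were found and 41 of those with a log2 change of 4. The simulation gave each gene the same spread in all groups. In the data the median SD of log2 CPM of type I genes was 0.27 in sorted KCs and 1.26 in KC-LCs. The simulation therefore cannot show how many false calls arise when groups differ in spread.

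The 44 genes and the gene lists were chosen with earlier results of these data known. Named with values were genes called in KCs or in the KC interaction, the 3 largest called differences per class in the other populations (average log2 CPM above 3) and 14 genes in all groups. The immunoproteasome share and the spread between libraries were added after the values were seen. Groups came from the sample labels. These call the libraries biological replicates without tying them to mice, so p-values measure the spread between libraries, which may be technical. Depth was 29569486 to 47105111 reads, and the floor of 3 reads covers counting error only. Replicates of a group differed by more than counting noise, so that none was counted as a duplicate. Replicate numbers were not used to pair sorted with cultured libraries. The labels do not say whether they do, and 0 of 12 correlations of their deviations exceeded 0.1. With 3 libraries in a group, low correlations cannot exclude pairing. Promoter sequences were RefSeq's. Protein sequences were not used here. The values of 1 gene of the pathway list are not reported here.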

Additional observations from a re-analysis of the deposited data

Results flagged for a closer look

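The ex vivo minus in vitro difference in KCs differed from the mean of that in MG, PMs and AMs, by the interaction term, for 30 of the 44 genes, each with a positive value. The values on the log2 scale among the regulators were 5.50 for Irf7, 3.02 for Stat2 and 4.15 for Usp18. In the Ifit family they were 2.98 for Ifit1, 4.41 for Ifit2 and 4.57 for Ifit3. In the OAS family they were 2.44 for Oas1a, 5.12 for Oas2, 4.44 for Oas3, 6.46 for Oasl1 and 3.80 for Oasl2. The sensor Ifi205 had 7.81, a value that depends on a single read in sorted MG. Among the effectors, the values were 3.22 for Isg15, 4.38 for Rsad2, 3.12 for Mx1, 8.31 for Ifi44, 1.51 for Bst2, 4.28 for Ifitm3, 2.44 for Xaf1, 2.53 for Cmpk2, 3.00 for Rtp4 and 1.49 for Trim30a. The size of the Ifi44 value depends in part on few reads, 57 over the sorted MG libraries, 47 over sorted PMs and 9 over sorted AMs. The interferon-gamma genes Gbp2 and Gbp3 had 2.23 and 3.43. The class I genes had 1.24 for H2-K1, 1.01 for H2-D1, 0.91 for B2m, 1.65 for Tap1, 1.18 for Psmb9 and 2.92 for Nlrc5. Of all genes, 10.4% were called positive in this test. Groups of 3 libraries are too small for a test of single outlying libraries.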

How the results depend on the processing

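The count of 43 genes higher in sorted KCs ran from 42 to 43 under every alternative. Leaving out single libraries gave 8 to 11 genes higher and 0 to 1 lower in KCs, 18 to 33 positive in the KC interaction, 8 to 28 lower and 0 to 6 higher in MG, 1 to 3 higher in AMs, and 0 to 19 with any difference among cultures. In MG, 1 gene was higher, but 3 were with limma-voom and DESeq2 and 0 with the replicate block or the fold threshold. In PMs, 2 genes were higher, but 1 was with all 24 libraries in 1 model. In AMs, 2 genes were higher, but 1 was in that model or with the fold threshold. Among cultures, 3 genes differed, but 17 with DESeq2 and 0 with the replicate block. Gbp3 in MG, at -0.87, ran from -1.39 to 1.74 and reversed without MG-LC replicate 1, and Irf5 in AMs, at -0.075, ran from -0.30 to 0.47 and reversed without AM-LC replicate 1. The cause was not tested. Of 1276 gene and setting pairs in the KC interaction, 1139 kept direction and side of the threshold, 120 no longer passed and 17 passed anew. In KCs these were 507, 6 and 15 of 528. With the replicate number as a block, 12 genes were higher in KCs and 24 positive in the KC interaction, and 14 were lower in MG. Among cultures 5 of 18 same-number correlations exceeded 0.1, and libraries correlated best with their own number in 10 of 18. The labels do not say whether cultures with the same number shared a batch, and this was not tested. Depth limits the interferon ligands, which lay near the floor of 0.0661 to 0.115 CPM in most libraries.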

Other observations

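Values of other pathway genes that differed between groups are given here. Ikbke, a kinase that phosphorylates IRF3 and IRF7, stood at 0.162 to 0.549 CPM in sorted MG and 58.0 to 114 CPM in MG-LCs, against 94.0 to 106 CPM in sorted KCs (-7.82 ± 0.55 for MG, edgeR adjusted p = 0.00077). Tlr9, the sensor of CpG DNA, stood at 4.77 to 9.52 CPM in sorted MG and at 0.256 to 1.74 CPM in MG-LCs (2.95 ± 0.74, edgeR adjusted p = 0.020). Socs1, an inhibitor of both interferon pathways, had 33.0, 10.04 and 5.45 CPM in sorted KCs and 1.34 to 6.42 CPM in the other sorted libraries (2.53 ± 0.42, edgeR adjusted p = 0.00070), and the highest value was that of sorted KC replicate 1. Irf8 stood at 1339 CPM in that library and at 424 and 462 CPM in the other sorted KC libraries. H2-Q7 stood at 147, 45.2 and 53.6 CPM in sorted KCs and at 3.01 to 41.5 CPM in the other sorted libraries (2.95 ± 0.29, edgeR adjusted p = 1.27e-05).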
